A study of Mus musculus with 2 samples.

Results

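The genes described here are the 6 that encode the secreted hormones of the anterior lobe of the pituitary other than Pomc, namely Gh, Prl, Cga, Lhb, Fshb and Tshb. They were chosen by symbol from the 27998 genes of 2 single-cell count matrices, and each symbol had 1 row in both matrices and in the deposited table of cluster means. The study profiled the dissected neurohypophysis (NH), the posterior lobe of the pituitary, by droplet-based single-cell RNA-Seq, in which each transcript is counted as a unique molecular identifier (UMI) under the barcode of its droplet. Each of the 2 libraries (pool 1 and pool 2) was made from the NH of 5 male C57BL/6 mice aged 3 months, with no treatment and no second genotype, so the animals within a pool cannot be told apart and each pool counts as 1 sample. The dissection kept adjoining tissue of the intermediate lobe (IL), whose cells the study named by the melanotrope markers Pomc and Pcsk2. The question was which cell clusters and which barcodes of a posterior lobe preparation carried transcripts of anterior lobe hormones.

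The anterior lobe makes its hormones in separate endocrine cells. Somatotropes make growth hormone (Gh) and lactotropes make prolactin (Prl), a related protein. The other 4 genes encode subunits of the glycoprotein hormones, each hormone being a dimer of the common alpha subunit encoded by Cga with a beta subunit that sets its receptor: Lhb and Fshb in gonadotropes, Tshb in thyrotropes. The transcription factor Pou1f1 (Pit-1) is needed for somatotropes, lactotropes and thyrotropes, and Nr5a1 (SF-1) marks gonadotropes. The posterior lobe itself holds axon endings of hypothalamic neurons and a resident glial cell, the pituicyte, and is not known to transcribe these 6 genes. Melanotropes of the IL make Pomc.

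The 6 genes lie on different chromosomes of the mouse genome (GRCm38, the assembly also known as mm10). Gh is at chromosome 11, 106300271 to 106301865 on the minus strand, and Prl at chromosome 13, 27057570 to 27065205 on the plus strand. Cga is at chromosome 4, 34893779 to 34907370 on the plus strand. The beta subunit genes are Lhb (chromosome 7, 45420820 to 45421897, plus strand), Fshb (chromosome 2, 107056140 to 107059656, minus strand) and Tshb (chromosome 3, 102775465 to 102782718, minus strand). Lhb overlaps Ruvbl2 and Tshb overlaps Tspan2, in each case on the other strand, and whether the counting used strand is not given in the sources used here.

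Promoter sequences from RefSeq (GRCm38.p6) were matched for 5 of the 6 genes, all but Gh. The 200 bases before the annotated start are shown for Prl and Cga, since Prl had the largest ratio between the pools among the 4 genes with a UMI in kept cells of both, and Cga is the subunit shared by the glycoprotein hormones. Capitals mark exact matches to the TATA box letters TATAAA on the given strand and to the Pit-1 letters TATNCAT on either strand.
Prl, chr13:27057370-27057569, plus strand: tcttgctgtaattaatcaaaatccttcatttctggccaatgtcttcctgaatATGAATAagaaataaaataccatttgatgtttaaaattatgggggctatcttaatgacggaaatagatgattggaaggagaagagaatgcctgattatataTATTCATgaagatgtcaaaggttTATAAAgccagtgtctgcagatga
Cga, chr4:34893579-34893778, plus strand: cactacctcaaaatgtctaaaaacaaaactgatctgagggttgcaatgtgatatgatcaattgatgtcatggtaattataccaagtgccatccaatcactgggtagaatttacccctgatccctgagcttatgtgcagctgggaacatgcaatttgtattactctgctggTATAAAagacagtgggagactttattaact
All 5 windows held TATAAA between 31 and 19 bases before the start, against 6.27% of 32851 promoters of the same length. The Prl window held TATNCAT at 148 to 142 bases before the start (minus strand) and at 47 to 41 bases (plus strand), and the other 4 windows held none, against 6.11% of all promoters with a match. The Lhb window held the SF-1 letters TGNCCTTG at 129 to 122 and at 59 to 52 bases before the start, and none of the other 4 did, against 4.29% of all promoters. These are matches of letters and not shown sites of binding. Starts here are those of RefSeq, and the Lhb window, chr7:45420746-45420945, runs past the gene start given above, 45420820. Its TATAAA and its SF-1 letters at 59 to 52 bases thus lie inside the gene as placed there. The windows of Fshb and Tshb also reach inside the positions given above.

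The files list 737280 barcodes for pool 1, of which 170936 had a UMI, and 1500 for pool 2. All 2834 barcodes with 250 or more UMIs were used, 1514 with 1484240 UMIs in pool 1 and 1320 with 1431956 UMIs in pool 2. They were divided into 4 classes. Kept cells met the limits of the study (over 1000 and under 10000 UMIs, 400 to 5000 genes, under 25% mitochondrial UMIs) and numbered 273 in pool 1 and 255 in pool 2. Barcodes of 10000 or more UMIs numbered 9 and 11, barcodes between 1000 and 10000 UMIs that failed another limit 85 and 66, and barcodes of 250 to 1000 UMIs 1147 and 988. The kept cells were assigned to the 11 clusters of the study, and from them to its 7 cell types, by solving the deposited cluster means for the cells that make them up, with the 6 hormone genes left out. Every cell had a weight of at least 0.981 in its cluster, and the hormone genes' recomputed means differed from the deposited ones by at most 0.144 per 10000. The markers fixed for each of the 7 types were detected in kept cells, 33 of 33 genes found in the matrix. That count takes a UMI in any kept cell of any type, so it does not bear on the assignment.

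The 2 libraries shared barcodes. Of the 1500 barcodes of pool 2, 1469 (97.9%) also had a UMI in pool 1, against 23.2% of all barcodes listed for pool 1. For barcodes with 250 or more UMIs in pool 2 and under 250 in pool 1, the UMIs in pool 1 came to 1.43% of those in pool 2. No barcode was kept in both pools and no kept cell of pool 1 was a barcode of pool 2, while 3 barcodes had 250 or more UMIs in both. The pool 2 barcode with 28339 UMIs, 7983 of them Gh, appeared in pool 1 with 340 UMIs, 124 of them Gh. Over all barcodes of pool 1, 332 of 15466 Gh UMIs (2.15%) were in barcodes of pool 2. Without the shared barcodes, the Gh level of pool 1 barcodes of 250 to 1000 UMIs was 4635 in place of 4871 counts per 1000000 UMIs (CPM), and the kept cells of pool 1 include none of them.

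Transcripts of all 6 genes were detected, in 875 of the 2834 barcodes. A Gh UMI was present in 741 barcodes, a Prl UMI in 288 and a Cga UMI in 121. The beta subunits were in fewer barcodes, 49 with Lhb, 20 with Tshb and 15 with Fshb. Gh summed to 5244 UMIs in pool 1 and 23348 in pool 2, and Prl to 316 and 3156. Cga summed to 80 and 486 UMIs, Lhb to 20 and 117, Tshb to 3 and 49, and Fshb to 1 and 21. Pool 2 held more of every one of the 6 genes at a nearly equal total depth.

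Most of these UMIs lay outside the kept cells. Kept cells held 47.1% of the UMIs of pool 1 and 50.7% of those of pool 2, but 14.3% and 8.68% of the Gh UMIs. For Prl the share in kept cells was 8.86% and 17.9%, for Cga 17.5% and 10.49%, and for Lhb 25% and 17.1%. Pomc, the hormone gene of the IL, had 63.7% and 52.8% of its UMIs in kept cells, above the share of all UMIs in these cells in both pools, while all 6 anterior lobe genes were below it.

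The level of Gh followed the same division. It was 1072 CPM in kept cells of pool 1 (95% Poisson interval 996.6 to 1151) and 2789 CPM in those of pool 2 (2669 to 2913). Barcodes of 250 to 1000 UMIs had 4871 CPM (4679 to 5069) and 25091 CPM (24622 to 25565). Barcodes of 10000 or more UMIs had 12464 CPM (11889 to 13058) and 62649 CPM (61426 to 63890), and these intervals cover counting error only, here and throughout. In both pools the kept cells had the lowest Gh level of the 4 classes. For the class of 10000 or more UMIs that order rested on few barcodes. It turned without the barcodes in which a hormone gene took at least 5% of the UMIs and at least 10 UMIs. This class then had 58.6 and 133 CPM and kept cells 117 and 471 CPM. Kept cells stayed below the barcodes of 250 to 1000 UMIs, at 1119 and 1724.5 CPM. They also stayed below the barcodes between 1000 and 10000 UMIs that failed another limit, at 820 and 2290 CPM. Over all barcodes, Prl had its lowest level in kept cells too, at 40.0 CPM in pool 1 and 776 CPM in pool 2, against 518 and 3004 CPM in barcodes of 250 to 1000 UMIs. Without the rich barcodes that order turned in part for Prl. Kept cells, at 34.5 and 361 CPM, were then above the barcodes of 10000 or more UMIs (8.37 and 53.4 CPM). They were also above those between 1000 and 10000 UMIs that failed another limit (0 and 213 CPM). Kept cells stayed below the barcodes of 250 to 1000 UMIs (219 and 631 CPM).

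The glycoprotein hormone genes were highest in the barcodes of fewest UMIs in pool 2 only. Cga was at 70.2 CPM in kept cells of pool 2 (52.3 to 92.3) and 904 CPM in its barcodes of 250 to 1000 UMIs (817 to 998). In pool 1 the values were 20.01 CPM (10.9 to 33.6) and 70.3 CPM (49.0 to 97.8), and the 9 barcodes of 10000 or more UMIs had 219 CPM (148 to 310). Lhb in barcodes of 250 to 1000 UMIs was 14.1 CPM in pool 1 and 199.6 CPM in pool 2, Tshb 4.02 and 96.4 CPM, and Fshb 0 and 41.3 CPM. The 0 of Fshb rests on 1147 barcodes with no UMI, and its upper limit was 7.41 CPM.

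**Figure D1:**
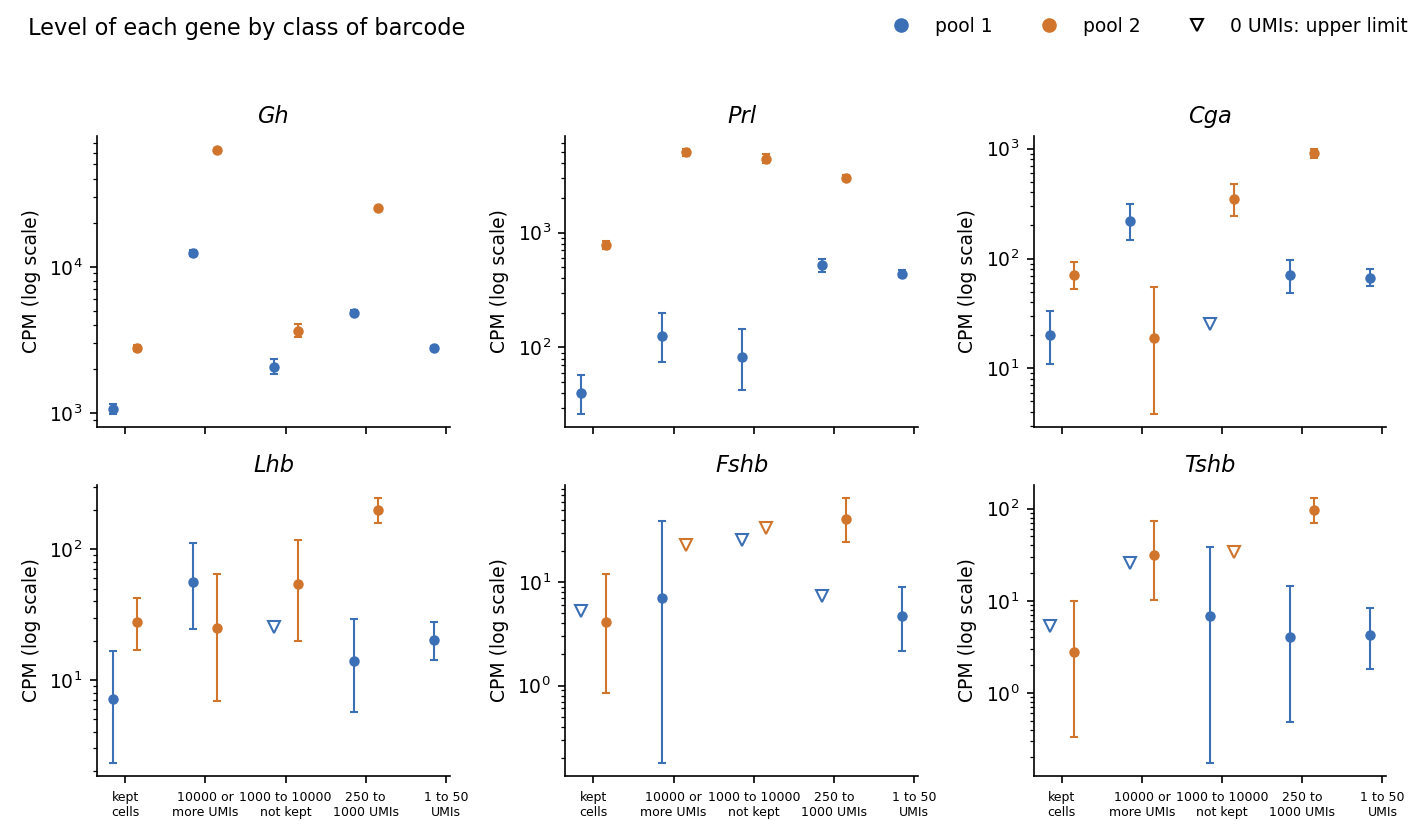
The level of each of the 6 genes in CPM (log axis, a separate range in each panel) by class of barcode, for pool 1 (blue) and pool 2 (orange). Points are levels with 95% Poisson intervals of counting, open triangles are upper limits where no UMI was counted, and barcodes of 1 to 50 UMIs are listed for pool 1 only. Over all barcodes, Gh was lowest in the kept cells in both pools, at 1072 and 2789 CPM.

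The share of barcodes with a Gh UMI has to be read against depth. Unthinned, 14.7% of kept cells of pool 1 (10.7 to 19.4%, exact binomial interval) and 37.6% of those of pool 2 (31.7 to 43.9%) had a Gh UMI, at medians of 2050 and 2330 UMIs. With each barcode thinned at random to 250 UMIs the shares were 2.93% and 8.24%. Thinned to the same depth, 15.3% and 25.8% of the barcodes of 250 to 1000 UMIs had one, compared with 19.1% and 32.7% unthinned. At equal depth, then, more of the low barcodes than of the kept cells carried Gh in each pool.

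The transcripts were concentrated in few barcodes. A barcode was called rich in a gene where that gene took at least 5% of its UMIs and at least 10 UMIs. By that measure 113 barcodes were rich in Gh, 14 in Prl and 3 in Cga, none in Lhb, Fshb or Tshb, and 126 in any of them. The 113 Gh-rich barcodes held 26548 of 28592 Gh UMIs (92.9%), the 14 Prl-rich barcodes 1500 of 3472 Prl UMIs (43.2%) and the 3 Cga-rich barcodes 24.6% of the Cga UMIs. Of the 126, 39 were in pool 1 and 87 in pool 2. By class, 114 had 250 to 1000 UMIs, 3 had 10000 or more, 3 failed another limit and 6 were kept cells.

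The Gh-rich barcodes were small and had few genes. Their median was 393 UMIs, 62 genes and 57.9% mitochondrial UMIs (1.23 to 87.5%), against 467 UMIs, 168 genes and 38.6% in the other 2721 barcodes. Within the class of 250 to 1000 UMIs, the medians were 58 genes and 61.6% in the 103 Gh-rich barcodes and 98 genes and 67.5% in the rest. Of the 113, 93 were over the mitochondrial limit. Gh took a median of 16.4% of the UMIs of a Gh-rich barcode and at most 85.4%. Dlk1, a membrane protein that somatotropes are known to make, had a UMI in 46 of the 113 (40.7%) and in 44 of the 2721 others (1.62%), and Pou1f1 in 4 of 113 (3.54%) and 9 of 2721 (0.331%). Those 4 barcodes had 28339, 22377, 18555 and 3090 UMIs. None of the 103 Gh-rich barcodes of 250 to 1000 UMIs had a Pou1f1 UMI, so the Pou1f1 contrast rests on deep barcodes.

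**Figure D2:**
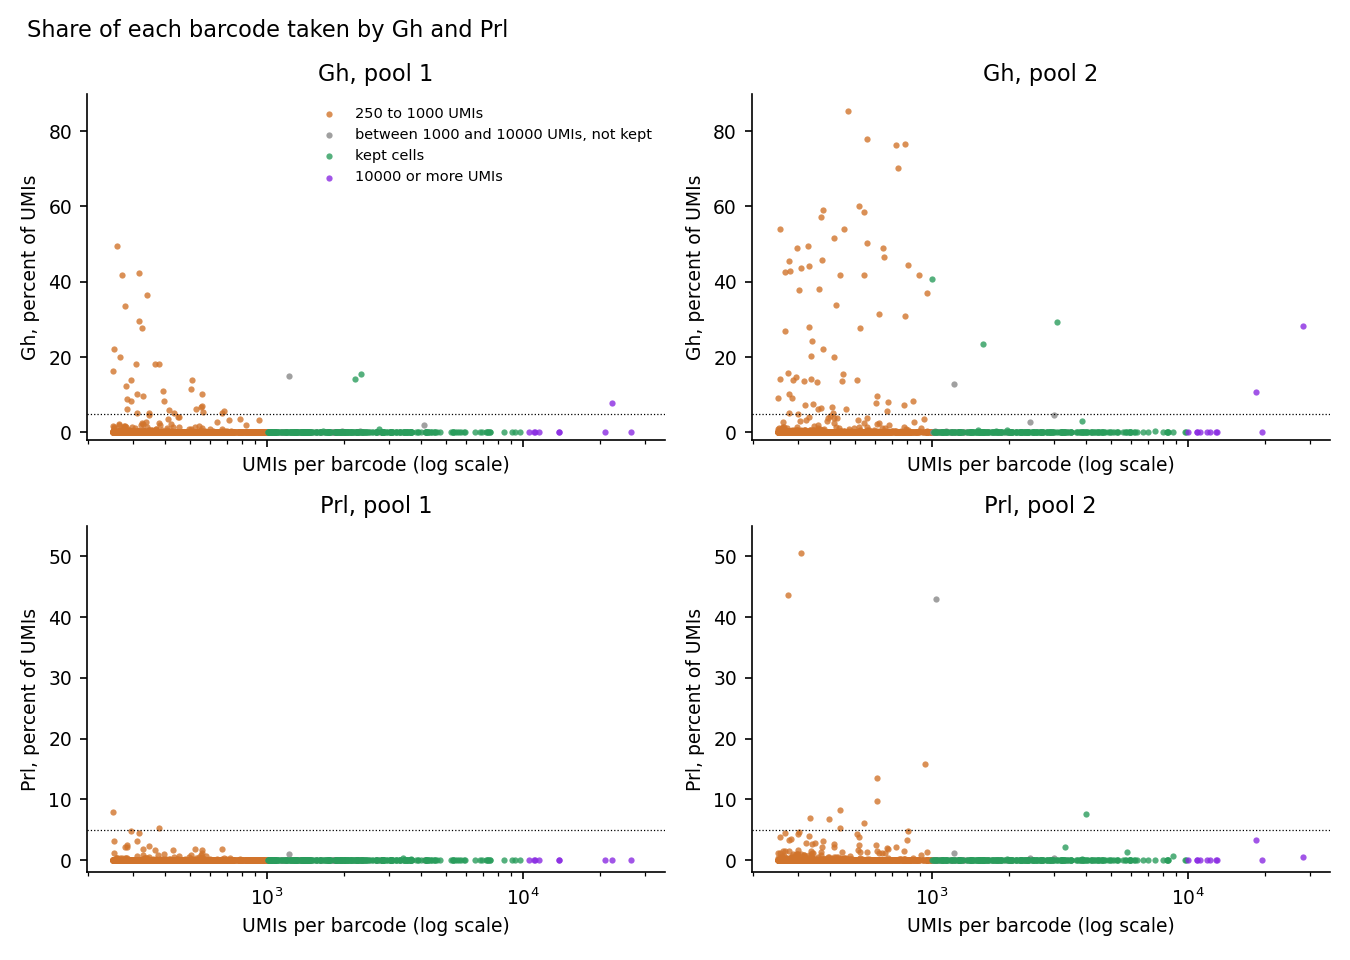
The percent of a barcode's UMIs that was Gh (top) or Prl (bottom) against its UMIs (log axis), for pool 1 (left) and pool 2 (right), with points coloured by class and a dotted line at 5%. Of the 123 barcodes rich in Gh or Prl, which lie above the line, 111 are barcodes of 250 to 1000 UMIs, pool 2 holds 84 and pool 1 39, and the highest Gh share was 85.4%.

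Single barcodes show what these droplets held. The barcode with most Gh had 28339 UMIs and 5640 genes in pool 2, with 7983 Gh, 159 Prl, 77 Dlk1, 5 Pou1f1 and 4 Ghrhr UMIs, the last the receptor for growth hormone-releasing hormone. Another pool 2 barcode, of 18555 UMIs, had 1985 Gh, 633 Prl, 70 Dlk1, 3 Pou1f1 and 4 Ghrhr UMIs. The pool 1 barcode of 22377 UMIs had 1761 Gh, 17 Prl, 28 Dlk1 and 3 Pou1f1 UMIs, with 14 Cyp2f2, 7 Lcn2 and 17 Clu UMIs of the epithelial-like markers. All 3 were picked for their Gh and also carried the somatotrope markers Dlk1 and Pou1f1, at 2.83 to 7.83% mitochondrial UMIs. Ghrhr, another marker fixed for somatotropes, had no UMI in the pool 1 barcode. The 3 barcodes exceeded the upper UMI limit, and whether a barcode of this size held more than 1 cell was not tested. At the other end, a pool 2 barcode of 785 UMIs and 102 genes had 602 Gh UMIs (76.7%), 4 Dlk1 UMIs and no Pou1f1 UMI.

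The barcodes in which Prl took the largest share held little Gh. The barcode with the largest count of Prl outside the class of 10000 or more had 447 Prl UMIs of 1041 (42.9%) and no Gh, in pool 2, and had 399 genes, just under the limit of 400. A pool 2 barcode of 309 UMIs had 156 Prl UMIs (50.5%) and 1 Gh UMI. Of the 14 Prl-rich barcodes 12 were in pool 2, 5 had no Gh UMI and 4 had 10 or more. Of the 113 Gh-rich barcodes 31 had no Prl UMI, 26 had 10 or more and 4 were rich in both. Over all barcodes, 109 of the 144 with at least 2 Prl UMIs had at least 2 Gh UMIs (75.7%, against 8.55% of the rest), and depth and library differ among these barcodes.

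The glycoprotein subunits were found together, and also with Gh and Prl. Of 24 barcodes with at least 2 Lhb UMIs, 21 had at least 2 Cga UMIs (87.5%), compared with 1.53% of the rest. Of the 64 barcodes with at least 2 Cga UMIs, 21 (32.8%) had at least 2 Lhb UMIs, against 0.108% of the rest. More of these 64 had at least 2 Gh UMIs (38, 59.4%, against 10.9% of the rest) or 2 Prl UMIs (27, 42.2%, against 4.22%). Of the 24 Lhb barcodes, 14 had at least 2 Gh UMIs (58.3%, against 11.6%) and 12 at least 2 Prl UMIs (50%, against 4.70%). Depth and library differ among these barcodes too. All 4 barcodes with at least 2 Fshb UMIs had at least 2 of Cga, and 3 had at least 2 of Lhb. The largest Cga count was in a pool 2 barcode of 803 UMIs, with 97 Cga, 18 Lhb, 5 Fshb and 27 Prl UMIs, no Gh, and 1 UMI each of Nr5a1 and Pou1f1. This barcode held the alpha subunit and both gonadotropin beta subunits, at 4.73% mitochondrial UMIs.

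Tshb was found with Cga, with Gh and with Prl. Of 10 barcodes with at least 2 Tshb UMIs, 6 had at least 2 Cga UMIs, 9 at least 2 Gh UMIs and 9 at least 2 Prl UMIs. The shares in the rest were 2.05% for Cga, 11.7% for Gh and 4.78% for Prl, and depth and library differ among these barcodes. The highest Tshb count was 14, in a pool 2 barcode of 956 UMIs with 355 Gh and 26 Cga UMIs. A pool 2 barcode of 315 UMIs had 9 Tshb and 21 Cga UMIs and none of Gh, Prl, Lhb or Fshb. That barcode carried the alpha and beta subunits of the thyroid-stimulating hormone, with 65 genes and 73.0% mitochondrial UMIs.

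Among the kept cells, 2 of the 11 deposited clusters carried the hormone genes at high mean levels. The deposited mean of Gh was 131.2 per 10000 in the cluster named epithelial/adenine-like and 104.4 in the IL cluster named neural progenitor a, and at most 7.89 in the other 9. Prl had means of 12.5 in neural progenitor a and 4.25 in epithelial/adenine-like. Cga, Lhb and Fshb were highest in epithelial/adenine-like, at 3.68, 2.31 and 0.215, and Tshb was above 0 in neural progenitor b (0.0325) and neural progenitor a (0.0254) alone. The second IL cluster, neural progenitor b, had a Gh mean of 1.52. These means pool the cells of both libraries, which split 47 and 47 in neural progenitor a, 33 and 21 in neural progenitor b, and 7 and 16 in epithelial/adenine-like.

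The pools did not carry Gh in the same cell type. In pool 1 the 7 epithelial-like cells held 671 of 750 Gh UMIs (34736 CPM) and the 80 IL cells held 22 (78.2 CPM). In pool 2 the 16 epithelial-like cells held 34 (575 CPM) and the 68 IL cells held 1856 of 2027 (7438 CPM). Over the pools, the epithelial-like mean was 17656 ± 24156 CPM and the IL mean 3758 ± 5204 CPM (SD, n = 2), each SD larger than its mean. The order of the other types was vascular endothelia at 1226 ± 1507, macrophage/microglia at 390 ± 313, pituicytes at 149.9 ± 133.9, vascular and leptomeningeal cells (VLMC) at 132 ± 187 and T-cell like cells at 78.9 ± 34.3 CPM. No type differed from its neighbour in this order by more than the larger of their SDs. In vascular endothelia 26 of the 28 Gh UMIs were in 1 pool 1 cell of 2750 UMIs that also had 5 Emcn and 11 Plvap UMIs.

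By UMIs, Prl lay mainly in IL cells, with 20 of 28 in pool 1 (71.1 CPM) and 478 of 564 in pool 2 (1916 CPM). In pool 1, 12 of the 20 were in 1 cell of neural progenitor b that had 371 Pomc UMIs (10.9%). Without the IL cell with most Prl, the level in IL cells over that in the other types combined was 1.51 in pool 1 (0.493 to 4.60). The corresponding ratio in pool 2 was 3.91 (3.00 to 5.12). Epithelial-like cells had 4 and 63 Prl UMIs (207 and 1066 CPM), 58 of the 63 in 1 cell. Over the pools, the IL mean was 993 ± 1304 CPM and the epithelial-like mean 637 ± 607 CPM (SD, n = 2). Cga was mainly in epithelial-like cells, with 3 and 44 UMIs (155 and 744 CPM). IL cells had 11 and 2 Cga UMIs, of which 9 were in 1 pool 1 cell. Lhb was in epithelial-like cells with 5 and 19 UMIs (259 and 322 CPM, mean 290 ± 44.3, SD, n = 2), and the other 505 kept cells had 1 Lhb UMI. All 3 Fshb UMIs were in 2 epithelial-like cells of pool 2 and both Tshb UMIs in 2 IL cells of pool 2.

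**Figure D3:**
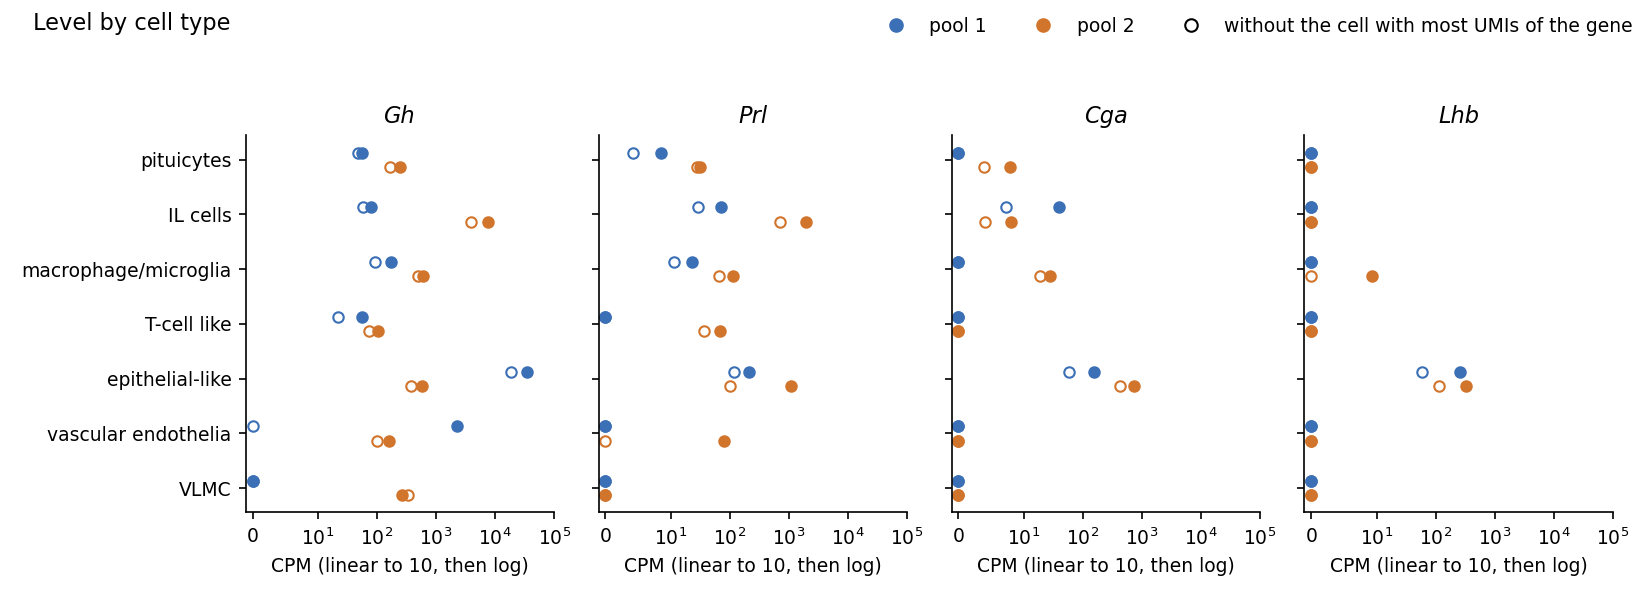
Levels in CPM (axis linear to 10, then log) of Gh, Prl, Cga and Lhb in the kept cells of each type, for pool 1 (blue) and pool 2 (orange), with open circles for the level without the cell that had most UMIs of the gene. The highest Gh level is in epithelial-like cells in pool 1 (34736 CPM) and in IL cells in pool 2 (7438 CPM), and Lhb lies in epithelial-like cells in both.

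The counts were summed per pool and cell type and tested with edgeR's quasi-likelihood test across the 14 sums, in which 4510 genes passed the filter on low counts. Of the 6 hormone genes, 4 passed the filter (Fshb and Tshb did not) and all 4 were called as differing among types, where 54.7% of all genes tested were called. Cga and Lhb passed through the epithelial-like sums alone, so a difference among types was built into their passing. The edgeR adjusted p was 3.97e-108 for Gh, 1.76e-53 for Prl, 3.76e-22 for Cga and 9.67e-14 for Lhb. These p-values come from a fit whose estimate of the spread was shared by all genes, and the clusters had been made from expression that includes these genes. With a robust fit, which lets outlying genes have a wider spread, the adjusted p was 0.157 for Gh and 0.175 for Prl, so neither was called, and Cga and Lhb were called, where 55.1% of all genes were. DESeq2 called Gh, Prl and Cga (adjusted p = 0.00274, 0.00195 and 0.049992) and not Lhb (0.726), where 33.1% of all genes were called.

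Against the mean of the other 6 types, 4 of 4 genes were called higher in epithelial-like cells, where 8.00% of all genes were, and 2 of 4 higher in IL cells, where 16.9% were. Since Cga and Lhb passed the filter through the epithelial-like sums alone, their being higher there was set by the filter. Their calls there, in any fit, thus lend no support, and the 4 of 4 cannot be read against the 8.00%. The fold change, on the natural log scale with its standard error, was 3.62 ± 0.171 for Gh in epithelial-like cells (edgeR adjusted p = 4.11e-95), 4.68 ± 0.463 for Cga (adjusted p = 1.68e-21) and 2.92 ± 0.331 for Prl (adjusted p = 2.38e-16). Without the rich cells Gh in epithelial-like cells was at 0.48 and not called (edgeR adjusted p = 0.364), and it was 0.27 without pool 1 and 5.11 without pool 2, values with no test. In IL cells the change was 2.299 ± 0.178 for Gh (adjusted p = 1.36e-35) and 3.53 ± 0.251 for Prl (adjusted p = 3.18e-42), and for Cga 1.43 with an edgeR adjusted p of 0.171. Gh in IL cells was at 0.57 without the rich cells, -0.97 without pool 2 and 3.45 without pool 1. Gh was called lower in pituicytes (-1.52 ± 0.265), T-cell like cells (-2.37 ± 0.382) and VLMC (-2.01 ± 0.430), where 0.953%, 2.75% and 1.55% of all genes were. With the robust fit Cga and Lhb in epithelial-like cells were called (8.03% of all genes were) and the others were not (17.1% of all genes were called higher in IL cells), with adjusted p = 0.0735 for Gh and 0.323 for Prl in epithelial-like cells and 0.156 and 0.0512 in IL cells. DESeq2 called Gh in epithelial-like cells (adjusted p = 0.00938, 4.32% of all genes) and Prl in IL cells (adjusted p = 0.00918, 4.43% of all genes) and no other pair. An exact permutation test of each type against the rest gave 0 of 42 calls after adjustment and 2 at an unadjusted p under 0.05, with exact p = 0.022 for Cga and for Lhb in epithelial-like cells, where the smallest p the design allows is 0.022. Over 42 tests of 6 genes the lowest adjusted p that could be reached was 0.0769, so this test could make no call.

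For Lhb the fitted change depends on sums at 0, so counts are given as well. Since Cga and Lhb passed the filter through the epithelial-like sums alone, their ratios there describe the counts and lend no support either. In pool 2 the level in epithelial-like cells was 215 times that in the other types combined (19 against 1 UMI, 95% interval 34.1 to 8918), and in pool 1 it was 5 UMIs against 0. The corresponding ratio for Cga was 9.61 in pool 1 (1.72 to 36.4) and 71.0 in pool 2 (31.7 to 186.8). For Prl it was 5.87 (1.48 to 17.1) and 1.42 (1.08 to 1.85). For Gh it was 299 in pool 1 (237 to 383) and 0.193 in pool 2 (0.133 to 0.270), so that in epithelial-like cells the direction turned between the pools for Gh. Without the epithelial-like cell with most Prl the Prl ratio in pool 2 was 0.132 (0.0428 to 0.311), so that its direction rested on that cell (a choice made after seeing the data), and without the one with most Cga the Cga ratio was 3.64 in pool 1 (0.0846 to 25.04) and 41.4 in pool 2 (17.2 to 114.4). The 19 Lhb UMIs of pool 2 were in 2 cells, with 13 and 6. Without the cell with most Lhb the Lhb ratio in pool 2 was 75.5 (9.16 to 3472), and pool 1 had 1 UMI against 0. In IL cells the Gh ratio turned the other way, 0.0450 in pool 1 (0.0280 to 0.0686) and 20.8 in pool 2 (17.7 to 24.4).

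Within the IL, Gh lay in cells with little Pomc. Across the 94 cells of neural progenitor a, Pomc took a median of 10.1% of the UMIs (0 to 29.7%), and 11 cells (4 of pool 1 and 7 of pool 2) had under 1%. Those 11 cells held 1813 of the 1846 Gh UMIs of the cluster (98.2%) and 158 of its 476 Prl UMIs (33.2%). Of the 7 cells with at least 10 UMIs of Gh or Prl, 6 were among them, all of pool 2. The 4 low-Pomc cells of pool 1 had no UMI of any of the 6 genes.

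The 6 low-Pomc cells with at least 10 UMIs of Gh or Prl also carried some other markers of the anterior lobe. The cell with most Gh had 910 Gh UMIs of 3090, 12 Dlk1, 3 Pou1f1, 1 Ghrhr and 1 Pomc UMI. A cell of 1581 UMIs had 371 Gh and 15 Dlk1 UMIs, and a cell of 1001 UMIs had 407 Gh, 2 Dlk1 and no Pomc UMI. Neither of these had a Pou1f1 or Ghrhr UMI. A cell of 5781 UMIs had 75 Prl, 5 Gh, 27 Dlk1 and 4 Pou1f1 UMIs, and a cell of 3300 UMIs had 72 Prl and 2 Pou1f1 UMIs. Drd2, a marker fixed for lactotropes, had no UMI in either. A cell of 3855 UMIs held both hormones, with 119 Gh, 11 Prl and 3 Pou1f1 UMIs. Of the 4 IL markers, these 6 cells had Pomc at 0 to 5 UMIs, Pcsk2, a hormone-processing enzyme, at 0 or 1 and Chga at 0 or 1, which goes against their label of IL cell, while Scg2, a granule protein, had 1, 3, 5 and 7 UMIs in 4 of them. The exception among the cells of neural progenitor a was a cell with 305 Prl UMIs of 4015 that also had 221 Pomc and 5 Pcsk2 UMIs (5.50% Pomc). Whether that barcode held 1 cell or more was not tested.

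**Figure D4:**
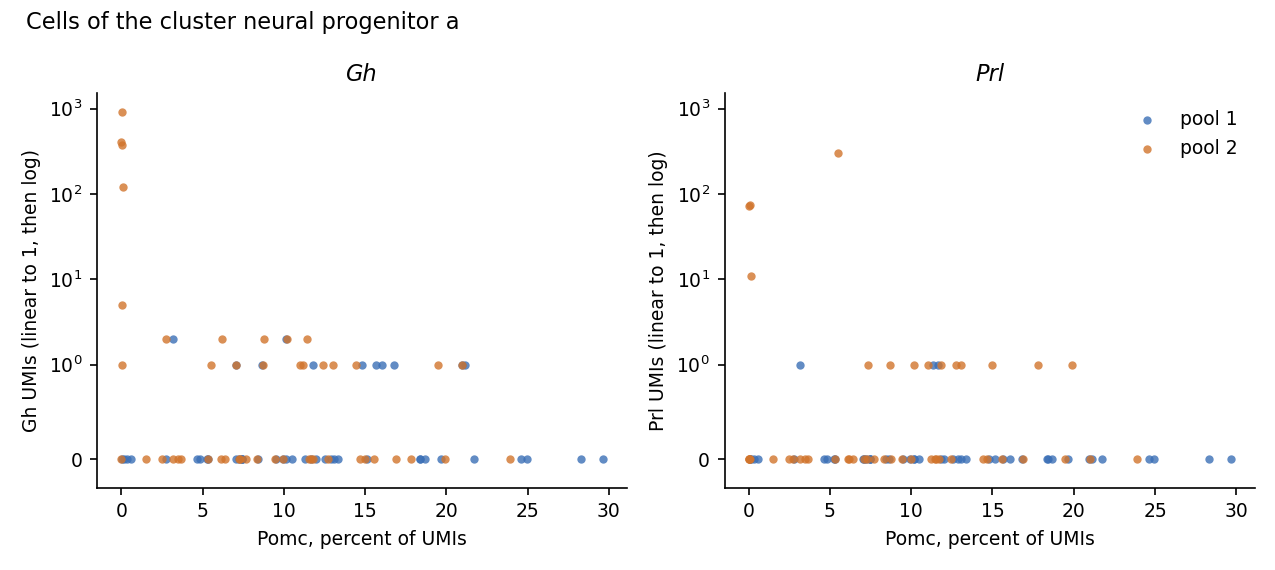
UMIs of Gh (left) and Prl (right, both axes linear to 1, then log) against the percent of UMIs that was Pomc, for each of the 94 cells of the cluster neural progenitor a in pool 1 (blue) and pool 2 (orange). All Gh counts of 10 or more lie at under 1% Pomc in pool 2 cells, and the Prl count of 305 lies at 5.50% Pomc.

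The epithelial-like cluster also held unlike cells. In pool 1, 2 of its 7 cells carried 669 of the 671 Gh UMIs, a cell of 2324 UMIs with 359 Gh and a cell of 2199 UMIs with 310 Gh. They had 4 and 2 Dlk1 UMIs, 6 and 2 Chga UMIs and no Pou1f1. Of the epithelial-like markers they had 4 and 1 Cyp2f2, 1 and 2 Lcn2, 3 and 2 Clu, 0 and 1 Krt18 and no Krt8 UMIs, so that both carried at least 3 of the 5. Both had Lhb and Cga UMIs as well, 4 and 2 in the former and 1 and 1 in the latter. In pool 2, 2 of its 16 cells carried 42 of the 44 Cga UMIs and all 19 Lhb UMIs. The former (6028 UMIs) had 21 Cga, 13 Lhb, 2 Fshb, 3 Nr5a1 and 16 Chga UMIs, and the latter (6181 UMIs) 21 Cga, 6 Lhb, 1 Fshb, 1 Gnrhr and 10 Chga UMIs, Gnrhr being the gonadotrope receptor for gonadotropin-releasing hormone. The former had no Gnrhr UMI, but 2 Tbx19, 2 Avpr1b and 18 Pomc UMIs. The latter had no Nr5a1 UMI, but 1 Tbx19 and 43 Pomc UMIs. Tbx19, Avpr1b and Pomc were fixed as markers of corticotropes, not of gonadotropes. Both cells also had 3 or more Krt18 UMIs and 3 or more Cyp2f2 UMIs. Another pool 2 cell (8792 UMIs) had 58 Prl and 15 Gh UMIs with 15 Cyp2f2, 14 Lcn2 and 19 Clu UMIs. Of the 23 cells, 12 had no UMI of any of the 6 genes (4 of pool 1 and 8 of pool 2), and 10 of these 12 had at least 3 of the 5 epithelial-like markers Krt18, Krt8, Cyp2f2, Lcn2 and Clu.

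Single UMIs of Gh were spread over the other types. With each cell thinned to 1000 UMIs, a Gh UMI was found in 4.76% of T-cell like cells (0.582 to 16.2%), 12.2% of IL cells (7.37 to 18.5%), 12.2% of pituicytes (8.01 to 17.7%) and 23.2% of macrophage/microglia (15.1 to 32.9%). Unthinned, the shares were 11.9%, 28.4%, 21.9% and 31.6%, at median depths of 1596, 3249, 2056 and 1739 UMIs. T-cell like cells were taken as a type that should lack Gh. Their thinned interval overlaps those of IL cells, pituicytes and macrophage/microglia. On 42 cells it is too wide for the overlap to show that the shares are alike, and these intervals count cells, not pools. These shares pool libraries that differ in Gh and that the types fill unequally, with 26 and 16 T-cell like cells and 41 and 54 macrophage/microglia in pools 1 and 2. Within pool 1 the thinned share was 0% in T-cell like cells (0 to 13.2%) and 12.2% in macrophage/microglia (4.08 to 26.2%), and within pool 2 it was 12.5% (1.55 to 38.3%) and 31.5% (19.5 to 45.6%). Of the 528 kept cells, 136 had a Gh UMI and 84 of them had exactly 1. The cell with most Gh held 32.8% of all Gh UMIs of kept cells and 7 cells held 90% of them, and for Prl these values were 51.5% and 6 cells. For Pomc 100 cells were needed.

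The barcodes of 1 to 50 UMIs, listed for pool 1 only, hold few UMIs each and were taken as the measure of RNA outside cells. There were 157608 of them with 1892289 UMIs. They held Gh at 2800 CPM (2725 to 2876), Prl at 439 CPM (409 to 470), Cga at 67.1 CPM (56.0 to 79.9), Lhb at 20.1 CPM, Fshb at 4.76 CPM and Tshb at 4.23 CPM, so that each of the 6 genes had a UMI there. The Gh level was above that of pool 1 kept cells, 1072 CPM, and above that of its pituicytes (55.2), T-cell like cells (54.6) and macrophage/microglia (169), and below that of its epithelial-like cells (34736). The ratio of Gh to Pomc UMIs was 0.178 in these barcodes. In pool 1 it was 0.111 for T-cell like cells (3 Gh to 27 Pomc UMIs), 0.135 for macrophage/microglia (15 to 111) and 0.0136 for pituicytes (13 to 954). It was 12.9 in epithelial-like cells (671 to 52), 1.73 in vascular endothelia (26 to 15) and 0.000655 in IL cells (22 to 33587). VLMC of pool 1 had 0 Gh and 8 Pomc UMIs. Ratios on so few UMIs are imprecise. Of these barcodes 27 met the definition of rich in Gh, with up to 26 Gh UMIs.

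The level of the hormone genes in pool 2 was above that in pool 1 over all barcodes of 250 or more UMIs. The ratio of CPM was 4.61 for Gh (95% counting interval 4.48 to 4.76), 10.4 for Prl (9.22 to 11.7), 6.30 for Cga (4.96 to 8.08) and 6.06 for Lhb (3.75 to 10.3). For Tshb it was 16.9 (5.46 to 84.9) and for Fshb 21.8 (3.50 to 900.2), on 3 and 1 UMIs in pool 1. Pomc went the other way over all barcodes, at 0.844 (0.834 to 0.855), and in kept cells, at 0.650 (0.639 to 0.661). It was higher in pool 2 in barcodes of 250 to 1000 UMIs, at 1.48 (1.43 to 1.52). The same held between 1000 and 10000 UMIs in barcodes not kept, at 2.02 (1.91 to 2.13). Each pool is 1 sample, so the spread between pools of the same kind is not known, and more cells with a hormone and more transcripts per cell cannot be told apart in such a sum.

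The ratio held in part without the rich barcodes. It was then 1.86 for Gh (1.70 to 2.04), 4.45 for Prl (3.67 to 5.43), 4.62 for Cga (3.41 to 6.36) and, above its value over all barcodes, 9.35 for Lhb (4.68 to 21.2). In pituicytes, of which none was rich, Gh was at 55.2 CPM in pool 1 and 244.6 CPM in pool 2, a ratio of 4.43 (2.41 to 8.79). In macrophage/microglia, again with none rich, it was 169 and 612 CPM, a ratio of 3.62 (2.04 to 6.82). Vascular endothelia, with none rich either, went the other way at 0.0699 (0.00804 to 0.279), on 26 Gh UMIs in 1 cell of pool 1 and 2 in pool 2, and T-cell like cells had a ratio of 1.89 (0.253 to 14.1). In IL cells the ratio was 95.1 (62.6 to 152.1), and 8.90 (5.69 to 14.6) without the rich cells. In epithelial-like cells it was 0.0166 (0.0114 to 0.0234), and 4.26 (1.09 to 36.6) without the 2 rich cells of pool 1, so that those 2 cells set its direction.

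**Figure D5:**
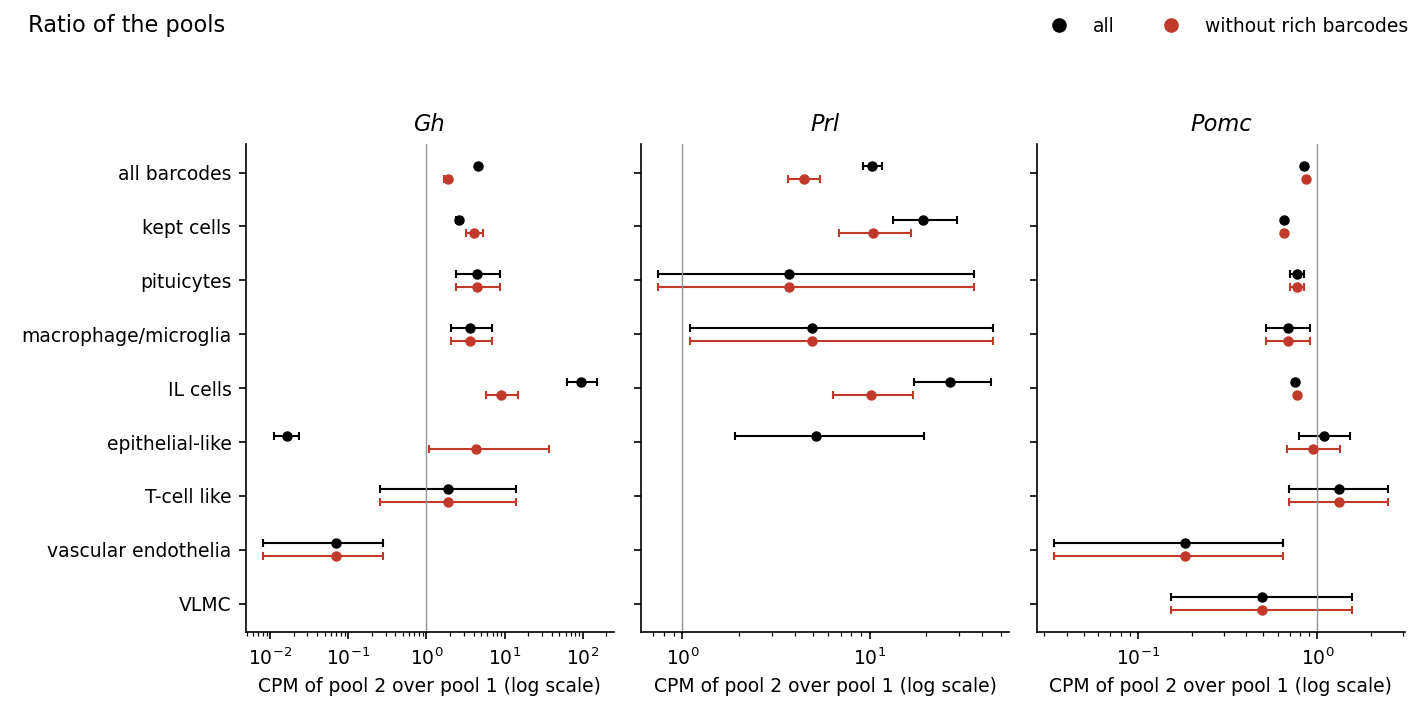
The CPM of pool 2 over that of pool 1 (log axis, a separate range in each panel) for Gh, Prl and Pomc in all barcodes of 250 or more UMIs, in kept cells and in the 7 cell types, with 95% counting intervals, over all barcodes (black) and without barcodes rich in a hormone gene (red). No point is drawn where pool 1 had no UMI, and the classes of barcode other than kept cells are not drawn. Gh without the rich barcodes lies above 1 in 7 of the 8 rows with a point (1.86 to 8.90) and at 0.0699 in vascular endothelia, and Pomc lies below 1 in 7 of 9 rows over all barcodes.

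The factors that specify these lineages were sparse in kept cells. Of a list of 12 lineage transcription factors, 9 had a UMI, and Tbx19 was among those that passed the filter and were called. Pou1f1 had 15 UMIs in 7 cells, all of pool 2, with 13 in IL cells and 2 in macrophage/microglia. Tbx19, the factor of Pomc-producing cells, had 79 UMIs, 71 of them in IL cells, Pitx1 had 46 and Lhx3 25, with 40 and 23 in IL cells. Foxl2 and Lhx4 had no UMI in kept cells, where 3 UMIs would correspond to 2.10 CPM. Of 10 receptors for hypothalamic or feedback signals, 8 had a UMI and none passed the filter, and Esr1, the estrogen receptor, was the one with at least 10 (19 UMIs).

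Markers of red blood cells were also measured in the same barcodes. Of the 5 on the list 4 had a UMI in kept cells, 2 passed the filter and 1 was called, where 54.7% of all genes tested were. Hbb-bs, a haemoglobin chain, had 79 UMIs in kept cells, of which 36 were in pool 1 and 43 in pool 2, and 28326 UMIs over all barcodes of 250 or more. It was not called as differing among the types (edgeR adjusted p = 0.280). Hba-a2 was called (edgeR adjusted p = 4.19e-06), higher in IL cells, which held 39 of its 43 UMIs, and its near copy Hba-a1 had 27 of 32 UMIs there. Of the Hba-a1 UMIs 26 were in 1 kept cell of pool 2, and Hba-a2 had a UMI in 10 kept cells. Of the 43 Hba-a2 UMIs 38 were in pool 2, the pool with more Gh in IL cells, and the part of red blood cells in the hormone results was not tested.

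Over the 14 sums, the genes whose level, as log2(CPM + 100), was most like that of Gh were Zfp516 (Pearson r = 0.87), Lmo7 (0.84), Dlk1 (0.84), Rab12 (0.83) and Rara (0.79). For Prl they were Rab25 (0.91), Smarca4 (0.89), Uchl1 (0.83), Arc (0.82) and Syt4 (0.82). These were picked as the highest among the 4510 genes tested, so a high r was built in. The 14 points share 2 libraries and differ in depth from 8491 to 281271 UMIs. In the epithelial-like sum of pool 1, where Gh was at 34736 CPM, Zfp516, Lmo7 and Rara were at 104 CPM each. Of the named genes Dlk1 had 99 UMIs, 67.7% of them in the IL cells of pool 2, and the others had between 19 and 208 UMIs.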

How the data were processed

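Per the labels and the study's methods, each library was made from a pool of dissociated NH with the 10x Chromium v2 kit. The authors ran Cell Ranger 2.0.0 (STAR 2.5.1b, the prebuilt mm10 reference of 10x) with 1500 forced cells and clustered the cells with Seurat 2.3. The deposited matrices hold raw counts, as UMIs per gene and barcode, and the deposited cluster means are on a scale per 10000 UMIs, made by the authors from both pools. The annotation release within that reference is not named in the sources used here, and positions are from GENCODE M21.

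Kept cells met the limits of the study. No doublet caller was run. Counts were summed per pool and cell type (14 sums) and tested with edgeR 4.0.16 (TMM, filterByExpr at counts of 5 or more and totals of 15 or more), with Benjamini-Hochberg adjustment over 4510 genes, called at adjusted p-values up to 0.05 and, against the other types, a natural log fold change of at least 1 in size. edgeR estimated infinite prior degrees of freedom, so that all genes shared 1 spread. The script was tested on simulated data. Intervals are exact (Clopper-Pearson, Poisson, conditional binomial) at 95%. Other versions were R 4.3.3, DESeq2 1.42.0, Python 3.11.15, NumPy 2.4.6 and SciPy 1.17.1.

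The types of a pool share its mice and library. Over 21 pairs of types, the correlation of the pool differences across 4510 genes was -0.0346 to 0.148 (median 0.0256). The genes, lists and limits were chosen with earlier results of these data known. Named genes were the 6 hormone genes, list genes with at least 10 UMIs in kept cells and the 5 genes most like each hormone gene that had at least 100. Alternatives were other normalizations, filters, tools, thresholds and left-out barcodes or pools. Trac, a marker of T cells, was not used here. The values of some genes of the lists are not reported here.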

Additional observations from a re-analysis of the deposited data

Results flagged for a closer look

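Barcodes of more than 50 and under 250 UMIs entered no comparison between groups, apart from those up to 100 UMIs in one alternative measure of free RNA, and carried transcripts of the 6 genes above the limit that a count of 0 allows. In pool 1 they held 4924 Gh, 892 Prl, 95 Cga, 21 Lhb, 15 Tshb and 5 Fshb UMIs. Of 11814 such barcodes in pool 1, 111 were rich in Gh, 21 in Prl and 1 in Cga, and barcodes with at least 10 Gh UMIs held 61.1% of their Gh UMIs. In pool 2, where the list was limited to 1500 barcodes, they held 646 Gh, 137 Prl, 32 Cga and 7 Lhb UMIs.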

How the results depend on the processing

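The 9 pairs of hormone gene and cell type called by edgeR became 2 with DESeq2, 5 with a mitochondrial limit of 10%, 4 without the rich cells (3 of the 9 and Gh in vascular endothelia, with 2 of the 9 not tested there) and 2 with a robust fit of the spread, chosen after seeing the data. The exact permutation test, also added later, gave 0, but could not reach an adjusted p below 0.0769 and bears on no call. The 4 genes called for any difference became 2 without the rich cells, where Gh and Prl stayed called and Cga and Lhb were not tested. With the robust fit all 4 were tested and 2, Cga and Lhb, were called, the genes that passed the filter through the epithelial-like sums alone. With the pool number as a replicate block 4 genes and 9 pairs were called, and no call changed. With 1 pool left out, Gh in IL cells ranged from -0.97 to 3.45 on the natural log scale, reversed without pool 2, and Gh in epithelial-like cells from 0.27 to 5.11, with no residual degrees of freedom and so no test. Without the rich cells the change of Gh was 0.57 in IL cells and 0.48 in epithelial-like cells, neither called. Over all genes, calls against the other types were 3333 higher and 415 lower (88.9% higher), with 4510 genes tested. They were 1450 and 445 (76.5%) with DESeq2, on the same 4510 genes. With the mitochondrial limit of 10% they were 1538 and 240, with 2361 genes tested, and with no filter 6577 and 326, with 16258 tested. With the cells clustered again without the 6 genes they were 3454 and 1001 (77.5%), with 5737 genes tested over 5 types. Genes differing among types were 2467 of 4510 in the main fit, 1494 of 4510 with DESeq2 and 1210 of 2361 with the mitochondrial limit. Counts from unequal numbers of genes tested do not compare directly.

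Thinned to 500 UMIs, Gh was in 11.6% of macrophage/microglia and Prl in 3.38% of IL cells, 0.510% of pituicytes, 2.11% of macrophage/microglia and 0% of the T-cell like type. Without the rich barcodes, Gh was at 294 CPM in kept cells and 96.0 CPM in barcodes of 10000 or more UMIs (means of the pools). The ratio of pool 2 to pool 1 was then 1.86 for Gh, 4.45 for Prl and 4.62 for Cga over all barcodes. For Tshb the ratio was 3.24 (0.260 to 170), on 1 UMI in pool 1 and 3 in pool 2. In kept cells the ratio was 4.05 for Gh and 10.46 for Prl, and in IL cells 8.90 and 10.1. In epithelial-like cells it was, reversed, 4.26 for Gh. As UMIs per barcode the Gh ratio was 5.11 over all barcodes and 2.89 in kept cells. At a threshold of 20%, 52 barcodes were rich in Gh, 3 in Prl, 0 in Cga and 55 in any, and at 1%, 43 in Prl and 13 in Cga. With free RNA taken from barcodes of 1 to 20 UMIs, Gh was at 3042, Prl at 515, Cga at 84.7 and Lhb at 27.6 CPM, and from 1 to 100 UMIs Gh at 2876 and Prl at 514 CPM. The other 94 summary values moved by less than their error or interval or, for counts, stayed near the main count. The latter include 147 barcodes rich in Gh and 172 in any at 1%. For levels with 1 pool left out this was fixed in advance and bears on no result. The level of either of 2 pools always lies within the SD of their mean. The number of UMIs limits Fshb and Tshb, with 3 and 2 in kept cells.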
